A study of Homo sapiens with 4 samples.

Results

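The genes described here are 9 transcription factors of the STAT and IRF families, STAT2, STAT3, STAT5B, STAT6, IRF1, IRF2, IRF3, IRF7 and IRF9. They were taken by name from the 29655 distinct gene names in the deposited tables, and each table held 1 row for each of the 9. RNA was sequenced from UMSCC74B, a cell line of head and neck squamous cell carcinoma (HNSCC), in 2 control libraries (genotype WT, control shRNA) and 2 libraries labelled PRMT5 KD (shRNA against PRMT5, an enzyme that dimethylates arginine residues of proteins). Cells of both groups came from the same line and were collected 72 h after the shRNA was introduced, by plasmid transfection according to the labels and by lentiviral particles according to the methods of the study. The labels do not say that the 2 libraries of a group came from separate cultures, so every error and p-value below measures the spread between these libraries only, which may be technical.

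STAT proteins wait in the cytoplasm until a Janus kinase bound to a cytokine receptor phosphorylates them, whereupon they pair, enter the nucleus and bind DNA, usually at the gamma-activated site (GAS). STAT2 is the exception in that it works mostly with IRF9 in the complex ISGF3, which binds the interferon-stimulated response element (ISRE) in the promoters of antiviral genes after type I or type III interferon. IRF proteins bind related sequences: IRF3 and IRF7 are activated by kinases downstream of nucleic acid sensors and switch on interferon genes, IRF1 is an activator induced by interferon gamma, and IRF2 competes with IRF1 for the same sites.

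The libraries held between 52185289 and 65964558 estimated counts, with 71.5% to 81.4% of them assigned to protein-coding genes and 4.87% to 15.6% to ribosomal RNA, with the highest ribosomal share in PRMT5 KD 1. PRMT5 itself, the targeted gene, was at 94.3 and 84.3 CPM (counts scaled to a common library total with the TMM factors of edgeR) in the controls and at 132 and 150 in the libraries labelled PRMT5 KD, a log2 fold change of 0.66 (SE 0.12, FDR 0.00550), so its mRNA level went against the label. The labels say that PRMT5 was also assessed by quantitative PCR and by immunoblot, which are not in these tables. The squamous markers KRT5, KRT14 and KRT6A had no count or 1 count in each control library and at most 22 in any library, and CDH1 had 9 counts at most. KRT17 had 5 and 6 counts in controls and 53 and 71 in the libraries labelled PRMT5 KD. TP63 and DSG3, the only 2 of the 8 squamous markers tested, were called lower. TP63 passed the filter on low values only through the controls, where it is high, so its call is no support for a difference. The summed level of the 8 squamous markers, most of it DSG3, was 49.8 and 43.8 CPM in controls against 22.7 and 31.6 in the libraries labelled PRMT5 KD. The 8 fibroblast and endothelial markers summed to 537 and 595 CPM against 86.3 and 93.5, with all 6 tested members called lower. Of these, PECAM1 passed the filter only through the controls. The 9 immune markers summed to 220 and 261 CPM against 275 in each library labelled PRMT5 KD, most of it CD68 and NCAM1. Of the defining markers, CD3E was at 0 in every library and PTPRC at 5 counts at most. Of the 4 immune markers tested, CD14 was called lower (34.6 and 40.0 CPM against 1.07 and 1.86) and CD68 higher (94.6 and 113 CPM against 152 and 170). Over all genes tested, 21.2% were called higher and 24.3% lower. In bulk RNA fewer cells of a type and less RNA per cell cannot be told apart, and the part of these markers in the results below was not tested.

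Of the 9 factors, IRF7 and IRF2 rose in the libraries labelled PRMT5 KD and the other 7 did not pass the test. A gene was called when the FDR (the p-value of edgeR's quasi-likelihood test adjusted by Benjamini-Hochberg over all 11897 genes tested) was under 0.05 and the log2 fold change was at least 0.5 in size. By this rule 2 of 9 factors (22.2%) were called higher, beside 21.2% of all genes tested, and 0 of 9 were called lower, beside 24.3% of all genes. At an unadjusted p under 0.05 edgeR gave 1 factor, STAT3, below 0 and 3 above 0, IRF2, IRF7 and IRF9. Over all genes that looser cut-off takes in every called gene and at least 1055 more, which had an FDR under 0.05 but a smaller fold. Passing it therefore does not set a factor apart. DESeq2 also called 2 factors higher and 0 lower. The share of factors called higher was therefore near the background. All 9 passed the filter on low values, their median log2 fold change was 0.11 beside -0.01 over all genes tested, and 6 of the 9 values were above 0. The libraries of the groups did not overlap for 7 of 9 factors (77.8%), beside 80.5% of all genes.

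**Figure D1:**
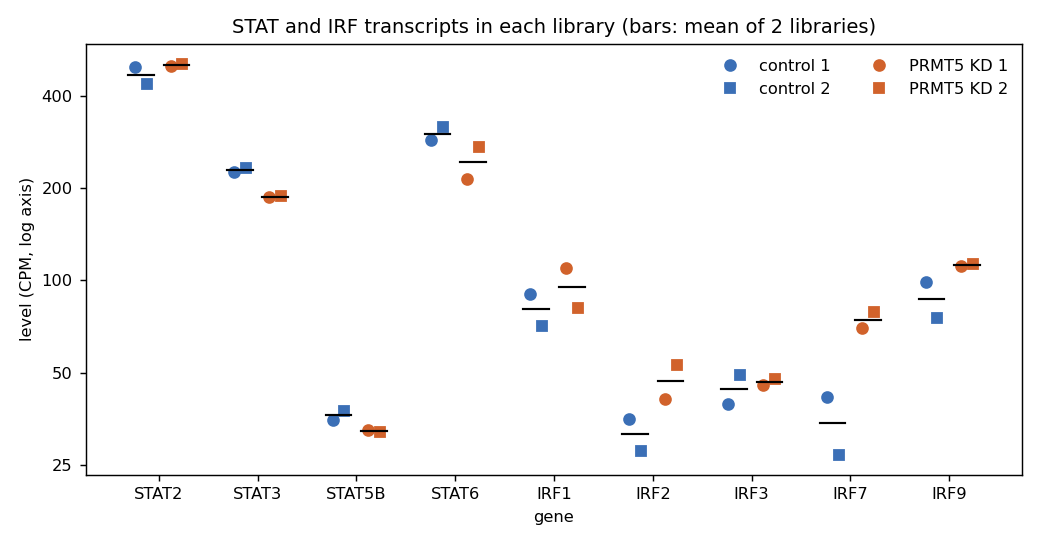
Level of each of the 9 transcription factors (CPM, log axis) in the 2 control and 2 PRMT5 KD libraries, with a bar at each group mean. IRF7 shows the widest gap between groups (41.6 and 27.0 CPM against 69.7 and 78.6), whereas the libraries overlap for IRF1 and IRF3.

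IRF7, which amplifies the production of type I interferon and is itself an interferon-induced gene, changed most among the 9. Its level was 41.6 CPM in control 1, 27.0 in control 2, 69.7 in PRMT5 KD 1 and 78.6 in PRMT5 KD 2. Both libraries labelled PRMT5 KD were above both controls, and the controls differed from each other by 1.54 times, the widest ratio within the controls for any of the 9. The group means were 34.3 ± 10.4 and 74.2 ± 6.29 CPM (SD, n = 2 each), a 2.17-fold difference, and the log2 fold change was 1.11 (SE 0.22, 95% interval 0.57 to 1.66, FDR 0.00813). Of all genes tested, 92.5% had a lower log2 fold change. Leaving out each library in turn gave values of 0.83 (without control 2) to 1.46 (without control 1), and the call was kept each time.

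IRF3, the constitutive counterpart of IRF7, is activated by phosphorylation without new synthesis. It was at 39.7 and 49.2 CPM in controls and at 45.6 and 47.6 in the libraries labelled PRMT5 KD. The latter lay inside the range of the controls, and the log2 fold change was 0.07 (SE 0.14, 95% interval -0.27 to 0.40, FDR 0.703). Without control 1 it turned to -0.079. IRF3 shares 734 exon bases with BCL2L12 on the opposite strand, and whether the deposited counts used strand is not given in the sources used here. Expressed as a ratio of RPKM (CPM per kilobase of the canonical transcript), IRF7 over IRF3 was 0.870 and 0.454 in controls and 1.27 and 1.37 in the libraries labelled PRMT5 KD, with both of the latter above both controls. Which of the pair was the more abundant depended on the length used: over the union of exons the ratio was 1.52 and 0.795 in controls and 2.22 and 2.40 in the others.

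IRF2, the competitor of IRF1, was at 35.4 and 27.7 CPM in controls and at 41.0 and 53.0 in the libraries labelled PRMT5 KD. The groups did not overlap, although PRMT5 KD 2 exceeded PRMT5 KD 1 by 1.29 times. The means were 31.6 ± 5.42 and 47.0 ± 8.46 CPM (SD, n = 2 each), a 1.49-fold difference with a log2 fold change of 0.58 (SE 0.18, 95% interval 0.14 to 1.01, FDR 0.0356). The call rests on single libraries: the FDR was 0.0603 without control 1 (log2 fold change 0.76), 0.219 without control 2 (0.41) and 0.0790 without PRMT5 KD 2 (0.39).

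IRF1, induced by interferon gamma, was at 90.6 and 71.1 CPM in controls and at 110 and 81.3 in the libraries labelled PRMT5 KD. PRMT5 KD 2 lay between the controls, and the log2 fold change of 0.24 (SE 0.19, 95% interval -0.22 to 0.70) did not pass the test (FDR 0.320). It was 0.045 without PRMT5 KD 1 and 0.076 without control 2, and 0.43 and 0.45 without control 1 and PRMT5 KD 2. Correcting each library for transcript length and GC content raised it to 0.55 (FDR 0.0445), past the threshold. IRF1 shares 2805 exon bases with the antisense gene IRF1-AS1. The ratio of IRF2 to IRF1, in RPKM, was 0.615 and 0.614 in controls and 0.589 and 1.03 in the libraries labelled PRMT5 KD, which overlapped the controls.

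Of the members of ISGF3, STAT2 was the most abundant factor, and the place of IRF9 depended on the length used. STAT2 was at 497 and 438 CPM in controls and at 501 and 509 in the libraries labelled PRMT5 KD. These were above both controls but by little, with a log2 fold change of 0.11 (SE 0.13, 95% interval -0.21 to 0.43, FDR 0.509). IRF9, the DNA-binding subunit, was at 98.6 and 75.7 CPM in controls and at 111 and 113 in the libraries labelled PRMT5 KD, again above both controls. Its log2 fold change of 0.37 (SE 0.15, 95% interval 0.01 to 0.73) missed the threshold with an FDR of 0.0756, and was 0.57 (FDR 0.0460) without control 1 and 0.19 (FDR 0.378) without control 2. Scaled by total counts alone it was 0.55 (FDR 0.0206). IRF9 shares 1544 exon bases on its own strand with a protein-coding annotation that has no symbol. The RPKM ratio of IRF9 to STAT2 was 0.537 and 0.468 in controls and 0.603 and 0.604 in the libraries labelled PRMT5 KD.

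STAT3, the main factor downstream of the IL6 receptor family, was at 226 and 233 CPM in controls and at 187 and 188 in the libraries labelled PRMT5 KD. The values within a group lay close together and the groups did not overlap. The means were 229 ± 5.16 and 188 ± 0.519 CPM (SD, n = 2 each), with a log2 fold change of -0.29 (SE 0.11, 95% interval -0.55 to -0.03) that did not pass (FDR 0.0602). With the correction for length and GC content it was -0.03 (FDR 0.848).

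STAT6, which mediates the response to interleukin 4 and interleukin 13, was at 286 and 316 CPM in controls and at 214 and 273 in the libraries labelled PRMT5 KD. These were below both controls, yet PRMT5 KD 2 exceeded PRMT5 KD 1 by 1.28 times. The log2 fold change was -0.31 (SE 0.15, 95% interval -0.68 to 0.07, FDR 0.138), with values of -0.10 without PRMT5 KD 1 and -0.48 (FDR 0.0189, below the fold required) without PRMT5 KD 2. STAT6 shares 59 exon bases with LRP1 and 69 with NAB2, both on the opposite strand.

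STAT5B, activated by growth hormone and by several interleukins, had the lowest level of the 9 per transcript length. It was at 35.2 and 37.6 CPM in controls and at 32.5 and 32.2 in the libraries labelled PRMT5 KD, below both controls. The log2 fold change of -0.17 (SE 0.11, 95% interval -0.45 to 0.10, FDR 0.241) did not pass, and it turned to 0.0076 with total-count scaling and to 0.12 with the correction for length and GC content. STAT5B and its neighbour STAT5A encode near-identical proteins and share 415 exon bases on opposite strands, so that their split is uncertain. Summed, they were at 49.9 and 54.9 CPM in controls and at 42.2 and 43.1 in the libraries labelled PRMT5 KD (log2 fold change -0.30, SE 0.11, FDR 0.0645).

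**Figure D2:**
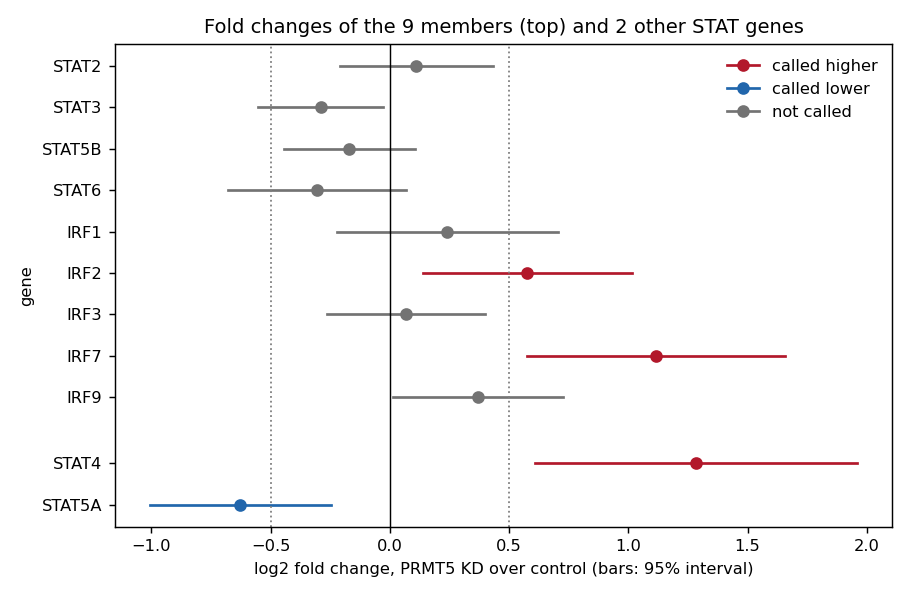
Log2 fold change of the 9 factors and, underneath, of 2 other tested STAT genes, in the libraries labelled PRMT5 KD over controls, with bars for the 95% interval and dotted lines at the fold required for a call. Among the 9 only IRF2 (0.58) and IRF7 (1.11) are called, both higher. STAT4, which passed the filter only through the libraries where it is high, is called higher and STAT5A lower.

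Compared per transcript length, STAT2 was the most abundant factor in both groups, with a mean of 106 RPKM in controls and 115 in the libraries labelled PRMT5 KD. In controls the order continued with STAT6 (76.0 RPKM), IRF9 (53.6), STAT3 (46.6), IRF3 (27.9), IRF1 (22.7), IRF7 (17.8), IRF2 (14.0) and STAT5B (7.17). The libraries of the neighbours IRF9 and STAT3, IRF3 and IRF1, IRF1 and IRF7, and IRF7 and IRF2 overlapped, and these neighbours are not separated by their spread. In the libraries labelled PRMT5 KD the order was STAT2, IRF9 (69.2 RPKM), STAT6 (61.5), IRF7 (38.6), STAT3 (38.1), IRF3 (29.2), IRF1 (26.9), IRF2 (20.8) and STAT5B (6.37). Here IRF9 overlapped STAT6, IRF7 overlapped STAT3, and IRF1 overlapped its neighbours IRF3 and IRF2. Over the length of the canonical transcript, IRF7 thus moved up the order, past IRF1, IRF3 and STAT3 in mean level, though not apart from STAT3. Which factors IRF7 passed depended on the length used. Over the union of exons, IRF7 was already above IRF1 in the controls, without overlap, and its control libraries overlapped those of IRF3. By that length IRF7 was below STAT3 in both controls and above STAT3 in both libraries labelled PRMT5 KD, without overlap. The place of IRF9 depended on the length too. Over the union of exons IRF9 was below STAT3 in both controls (14.4 and 10.9 RPKM against 19.0 and 19.4). In controls IRF9 also overlapped IRF7, and in the libraries labelled PRMT5 KD it was below IRF7 (17.8 and 19.1 RPKM against 27.7 and 32.7).

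**Figure D3:**
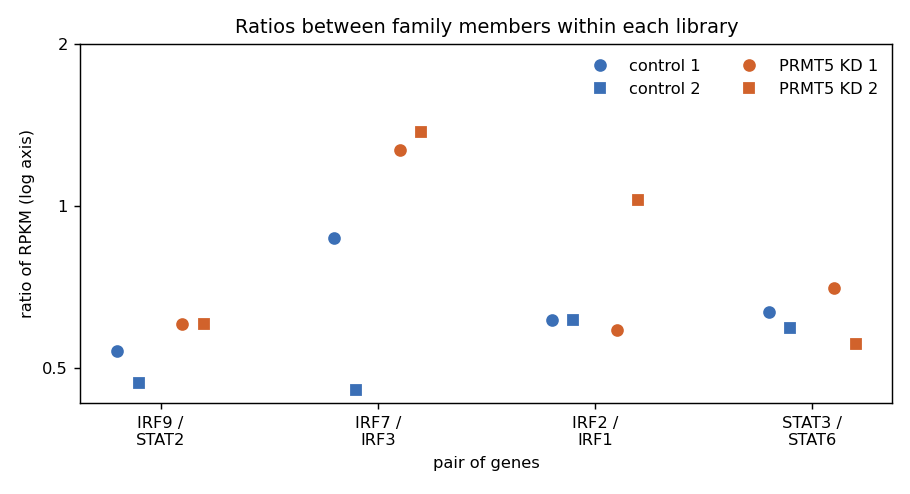
Ratio of the RPKM of a pair of STAT or IRF genes within each library (log axis). IRF7 over IRF3 is lower in each control (0.870 and 0.454) than in each library labelled PRMT5 KD (1.27 and 1.37), whereas IRF2 over IRF1 and STAT3 over STAT6 overlap between groups.

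Of 5 other STAT and IRF genes described here, 2 had enough reads to be tested. STAT4, best known from lymphocytes, was low throughout at 2.07 and 1.60 CPM against 5.15 and 3.76. It was called higher, but it passed the filter on low values only through the libraries labelled PRMT5 KD, where it is high, so the call is no support for a difference. STAT5A was at 14.7 and 17.2 CPM against 9.73 and 11.0 and was called lower (-0.63, SE 0.16, FDR 0.0159). Both calls were lost when either control was left out, and that of STAT5A also with total-count scaling. Among the untested genes, IRF5 had 19 and 28 counts in controls and 84 and 95 in the libraries labelled PRMT5 KD. IRF4 had between 5 and 15 counts, and IRF8 had 0 in every library, which allows up to 3 counts a library (counting error only).

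The Janus kinases that phosphorylate the STAT proteins did not pass the test. JAK1 had a log2 fold change of -0.15 (FDR 0.423), JAK2 of 0.12 (FDR 0.575) and TYK2, which serves the type I interferon receptor, of -0.30 (FDR 0.0636). TYK2 was below both controls in each library labelled PRMT5 KD. JAK3 was below the filter, with 28 and 60 counts in controls and 5 and 12 in the others, and was called lower with no filter on low counts (-2.36, FDR 0.00775) and with edgeR's own filter (-2.34, FDR 0.0111).

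Of 18 cytokine ligands that act through STAT proteins, 8 were tested, 4 were called higher (50%, beside 21.2% of all genes) and 2 lower (25%, beside 24.3%). The highest were IL11 (log2 fold change 4.45, FDR 0.00365) and IL24 (2.64, FDR 0.0282), both known to signal through STAT3, and the lowest were IFNE (-3.17, FDR 0.000624), an epithelial type I interferon, and CTF1, which had 39 and 65 counts against 27 and 26 and passed the filter only through the controls. Without control 2 the ligands called higher numbered 1, and with DESeq2 those called lower numbered 1. The gene of interferon beta, IFNB1, had 18 and 2 counts in controls and 22 and 8 in the libraries labelled PRMT5 KD, and IFNL1 had 7 and 1 against 24 and 1. Counts of both overlapped between groups and were too low to be tested. Of 19 cytokine receptor chains, 16 were tested, 2 were called higher (12.5%, beside 21.2% of all genes) and 6 lower (37.5%, beside 24.3%). IL4R (0.55, FDR 0.0259), the receptor chain upstream of STAT6, and IL22RA1, with 43 and 57 counts against 181 and 432, were the 2 called higher. IL22RA1 passed the filter only through the libraries labelled PRMT5 KD, and LIFR (-1.97, FDR 0.000284) and EPOR (-1.67, FDR 0.00203) had the lowest values. Without control 1 no receptor was called higher by edgeR.

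Of 14 kinases and adaptors upstream of IRF3 and IRF7, all were tested, 1 was called higher (7.14%, beside 21.2% of all genes) and 3 lower (21.4%, near the 24.3% of all genes), with a median of -0.20. CHUK, a kinase that phosphorylates IRF7, was the one called higher (0.93, FDR 0.000987). TRAF3 (-0.93, FDR 0.00379), an adaptor that recruits the kinases of IRF3, and MAVS (-0.71, FDR 0.00260), the mitochondrial adaptor of RNA sensing, had the lowest values. Of 12 genes whose products partner with IRF or STAT proteins, 11 were tested. Of these, 4 were called higher (36.4%, beside 21.2% of all genes) and 2 lower (18.2%, beside 24.3%). IFI35 (1.82, FDR 0.000680) and its binding partner NMI (1.56, FDR 0.00105) were highest, and the corepressors IRF2BPL (-1.01, FDR 0.00340) and IRF2BP2 (-0.58, FDR 0.00767) lowest. Of 18 inhibitors of JAK-STAT signalling, 16 were tested. Of these, 4 were called higher (25%, near the 21.2% of all genes) and 2 lower (12.5%, beside 24.3%). SOCS2, among those called higher, passed the filter only through the libraries labelled PRMT5 KD. USP18 (2.05, FDR 0.0352), which blocks the type I interferon receptor, and SOCS1 (2.03, FDR 0.00169), which inhibits Janus kinases, had the highest values. PIAS3 (-0.64, FDR 0.0107), an inhibitor of STAT3, and SOCS5 (-0.56, FDR 0.00615), of the same family as SOCS1, had the lowest. No inhibitor was called lower by edgeR without control 2 or with total-count scaling, and the kinases and adaptors called higher numbered 2 with DESeq2 and 3 with total-count scaling.

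Larger fold changes stood among the genes that these factors are known to drive. Of 28 genes driven through the ISRE, all were tested, 21 were called higher (75%, beside 21.2% of all genes) and 0 lower (beside 24.3%). All 28 values were above 0, with a median of 1.43 beside -0.01 over all genes tested. At the extremes of the called genes stood RSAD2 (3.99, FDR 0.0173), an antiviral enzyme, and OASL (3.09, FDR 0.0129), and BST2 (0.66, FDR 0.0161), a tether of budding viruses, and IFIH1 (0.84, FDR 0.0483), an RNA sensor. The summed level of the 28 was 8208 CPM in control 1, 4459 in control 2, 14989 in PRMT5 KD 1 and 23187 in PRMT5 KD 2. The libraries labelled PRMT5 KD were above both controls, but the libraries of each group also differed: 26 of 28 genes were higher in control 1 than in control 2 (median log2 ratio 0.81), and 27 of 28 were higher in PRMT5 KD 2 than in PRMT5 KD 1 (median 0.45). The number called rests on single libraries. It rose without control 1 and fell without control 2, PRMT5 KD 1 or PRMT5 KD 2. Without PRMT5 KD 2 the share called came near that of all genes in the same fit. With no filter on low counts 13 of the 28 were called higher, beside 2938 of all 16838 genes then tested. Among the 9 factors 5 were higher in control 1 than in control 2, IRF7 by 1.54 times, IRF9 by 1.30, IRF2 by 1.28, IRF1 by 1.27 and STAT2 by 1.13, and the ratios of the other 4 ran from 0.806 for IRF3 to 0.969 for STAT3.

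Of 19 genes driven through GAS sites, 17 were tested, 14 were called higher (82.4%, beside 21.2% of all genes) and 1 lower (5.88%, beside 24.3%), with a median of 1.25. CXCL11 (3.96, FDR 0.00731), a chemokine, and IDO1, which degrades tryptophan, had the highest fitted values. IDO1 had 40 and 24 counts in controls against 997 and 1029, and passed the filter only through the libraries labelled PRMT5 KD. PSMB8 (0.72, FDR 0.00319), a subunit of the immunoproteasome, was the lowest of those called higher, and ICAM1 (-1.17, FDR 0.00387), an adhesion molecule, was the one called lower. Leaving out single libraries gave 10 to 13 called higher.

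Targets of STAT3 went in both directions, with 5 called higher (31.2%, beside 21.2% of all genes) and 7 lower (43.8%, beside 24.3%) of 16 tested from a list of 20. SOCS3 (1.92, FDR 0.00233), the feedback inhibitor of STAT3, and BIRC5 (1.69, FDR 0.00373), an inhibitor of apoptosis that is also a mitotic protein, were highest, and VEGFA (-2.34, FDR 0.00336), an angiogenic growth factor, and A2M, a protease inhibitor of plasma, lowest. A2M had 138 and 187 counts in controls against 0 and 5, and passed the filter only through the controls. Of 14 targets of STAT5 and STAT6, 9 were tested, and 3 of the 9 passed the filter through 1 group only. Of the 9, 5 were called higher (55.6%, beside 21.2% of all genes) and 2 lower (22.2%, near the 24.3% of all genes). PIM2 (3.37, FDR 0.00209), a kinase, and POSTN (2.07, FDR 0.0105), a matrix protein, were highest, and PIM1 (-0.81, FDR 0.0204), a related kinase, and CCND2, a cyclin with 176 and 256 counts against 50 and 36 that passed the filter only through the controls, lowest. Leaving out either control gave 3 of these called higher and 1 lower. Without control 2 the STAT3 targets called lower numbered 4.

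**Figure D4:**
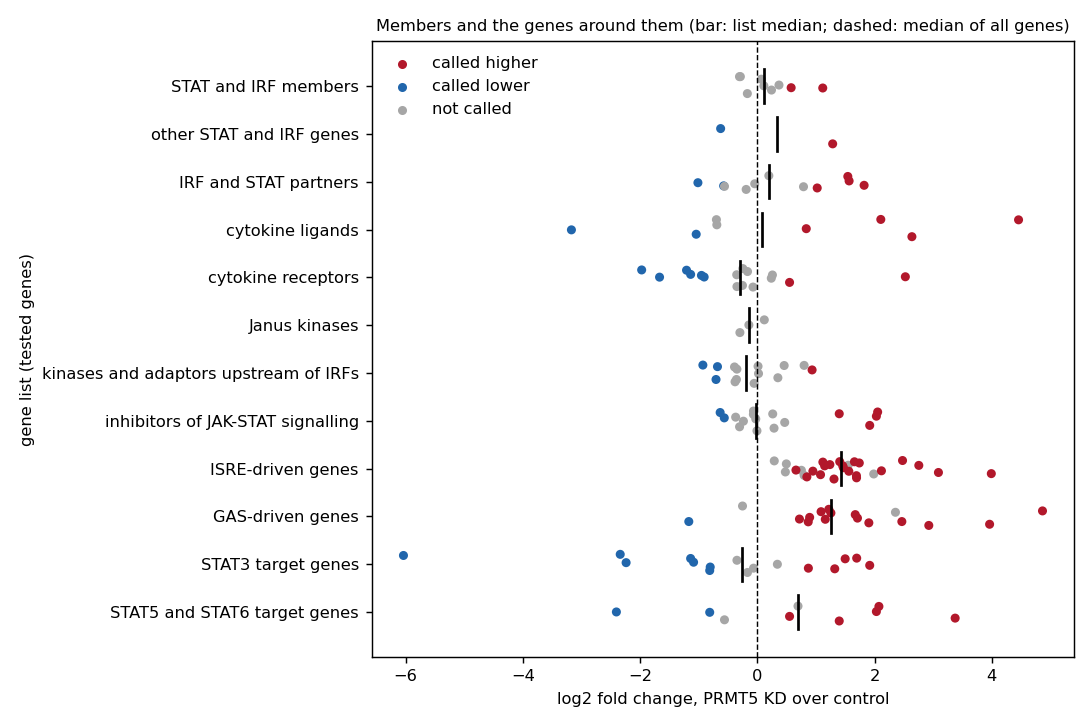
Log2 fold change of each tested gene in the lists around the STAT and IRF factors, with a bar at each list's median and a dashed line at the median of all genes tested (-0.01). The median of the 9 factors is 0.11, with IRF7 (1.11) and IRF2 (0.58) above the rest, and the medians of the ISRE-driven (1.43) and GAS-driven (1.25) genes lie to the right of it.

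Sequence upstream of the transcription start was read from RefSeq (GRCh38.p14) for 6 of the 9 factors, STAT2, STAT3, STAT5B, STAT6, IRF1 and IRF9. Entries for IRF2, IRF3 and IRF7 were not matched. The 250 bases before the start were searched for 3 sets of letters on both strands: GAAANNGAAA for the ISRE, AANNGAAA for the IRF core, which every ISRE match contains, and TTCNNNGAA for GAS, which reads the same on both strands. The upstream windows of IRF1 and IRF9 are shown because they held the only matches among the 6. Capitals mark the matched letters, and each window is written 5′ to 3′ on the strand of its gene.
IRF1, chr5:132490774-132491023, minus strand: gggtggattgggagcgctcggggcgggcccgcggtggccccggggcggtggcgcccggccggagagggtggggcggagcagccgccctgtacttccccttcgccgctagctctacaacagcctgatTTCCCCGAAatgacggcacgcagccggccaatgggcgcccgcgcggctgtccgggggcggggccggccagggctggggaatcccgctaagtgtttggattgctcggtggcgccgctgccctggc
IRF9, chr14:24161015-24161264, plus strand: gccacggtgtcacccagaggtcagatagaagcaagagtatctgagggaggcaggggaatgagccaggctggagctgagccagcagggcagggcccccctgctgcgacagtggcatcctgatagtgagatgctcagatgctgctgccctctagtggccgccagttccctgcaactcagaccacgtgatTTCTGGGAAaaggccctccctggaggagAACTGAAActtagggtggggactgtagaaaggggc

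IRF1 had a GAS match from 124 to 116 bases before the start. IRF9 had a GAS match from 63 to 55 bases and an IRF core from 35 to 28 bases before the start. These are RefSeq starts, and each of the 6 windows overlaps the GENCODE span of its gene given below. The IRF core of IRF9 lies across the GENCODE start (chr14:24161234), and the IRF1 window lies inside the GENCODE span of IRF1. The windows of STAT2, STAT3, STAT5B and STAT6 held none of the 3, and no window of the 6 held the ISRE letters. Over all 35116 windows of the same length in the RefSeq table, 3.02% held the ISRE letters, 20.3% the IRF core and 6.57% the GAS letters. Of the 28 ISRE-driven genes 23 were in the table, where 15 held the ISRE letters and 5 the GAS letters. Of the 19 GAS-driven genes 11 were in the table, where 4 held the GAS letters and 5 the ISRE letters. The GAS letters were thus more frequent in the GAS-driven list (4 of 11) than over all windows (6.57%). They were also more frequent in the ISRE-driven list (5 of 23) than over all windows. Whether the GAS letters set these lists apart from each other was not tested, and the numbers are small. BST2 and IFIH1, the called genes with the lowest values, are shown with 30 bases around 1 match on the gene's strand, in capitals. BST2 held another match, from 124 to 115 bases before the start, which overlaps the one shown. IFIH1 held others on the opposite strand, from 159 to 150 and from 153 to 144 bases. For RSAD2 and OASL, the highest, no match was found, whether for lack of a window or of the letters.
BST2, chr19:17405741-17405770, minus strand: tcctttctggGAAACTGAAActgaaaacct
IFIH1, chr2:162318686-162318715, minus strand: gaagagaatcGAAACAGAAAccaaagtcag

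These matches describe letters in the windows and not binding, which was not measured here. Of the 2 factors with a match, IRF1 and IRF9, neither passed the test (FDR 0.320 and 0.0756).

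The genes span several chromosomes (GRCh38, GENCODE 44). STAT2 lies at chr12:56341597-56360203 and STAT6 on the same chromosome at chr12:57095408-57132139. STAT5B (chr17:42199176-42288633) and STAT3 (chr17:42313324-42388540) are neighbours, with STAT5A between them. IRF1 lies at chr5:132440440-132508719, IRF2 at chr4:184385702-184474558, IRF3 at chr19:49659569-49665875, IRF7 at chr11:612553-615983 and IRF9 at chr14:24161234-24168043. The tables give 1 value per gene name, so isoforms were not resolved.

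The genes whose pattern was most like that of IRF7, by the Euclidean distance of log2 CPM centred on the control mean over the 4 libraries, were WTIP (distance 0.0335), ARHGEF39 (0.104), CASC5 (0.108), RACGAP1 (0.110) and SCML2 (0.110), with log2 fold changes from 1.05 for RACGAP1 to 1.18 for CASC5. For STAT6, the factor with the lowest value, they were CDC14B (0.0233), PTPLAD1 (0.0486), GJB7 (0.0540), MAT2A (0.0622) and ATP8B2 (0.0622), none of which was called.

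**Figure D5:**
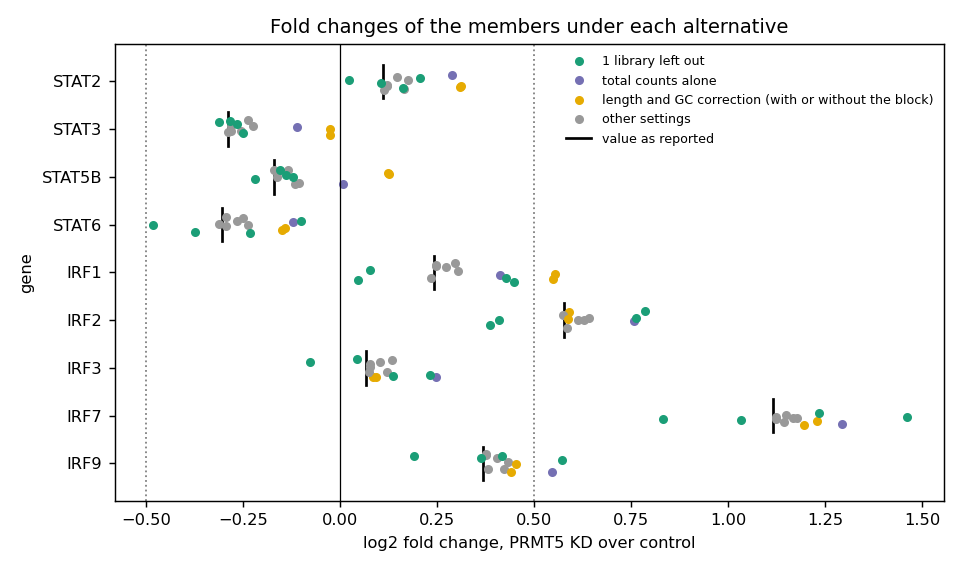
Log2 fold change of the 9 factors under each alternative setting, with a black bar at the reported value and dotted lines at the fold required for a call. IRF7 lies beyond the fold required in every setting (0.83 to 1.46), whereas IRF2 crosses it and STAT5B and IRF3 cross 0.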

How the data were processed

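Gene tables of 4 RNA-seq libraries (NEBNext Ultra II Directional kit, Singular Genomics G4) were used. The deposited values are estimated counts per gene symbol, with no normalization by the authors, of which 86.0% to 86.8% are whole within 0.0005. The processing notes name Trim Galore, STAR, Salmon, DESeq2 and GRCh38. The methods of the study name STAR 2.7.10a, Gencode 37 and FeatureCounts 2.0.1, which gives whole counts, so the quantifier behind these tables is uncertain. Rows with the same name were summed, counts rounded, and 28 rows with date-like names dropped (0.150% to 0.161% of counts). Genes that code for proteins were tested if their RPKM (over the union of exons) reached 0.5 in both libraries of a group. The test was run in edgeR 4.0.16 (R 4.3.3, TMM, robust quasi-likelihood, no covariates). A prior count of 2 was used for log2 CPM, which served the genes of like pattern, the pairing correlation and the length and GC correction. An exact permutation test of 2 against 2 libraries cannot give a p under 0.333, so none is given. The procedure was tested on simulated data. The factors and lists were chosen with earlier results of these data known. Named genes were the 9 factors, PRMT5, all genes of lists of up to 7, IFNB1 and IFNL1, and the 2 highest and 2 lowest called genes of longer lists. BST2 and IFIH1 were shown as sequence, and marker genes named, after their values were seen. Alternatives were DESeq2 1.42.0, other scalings and filters, all gene names, a fold threshold of 1, a length and GC correction, a replicate block and leaving out each library. Some genes of the lists are not reported here.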

Additional observations from a re-analysis of the deposited data

How the results depend on the processing

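IRF7 was called higher under every alternative, and the direction of 7 of the 9 factors held throughout. STAT5B turned to 0.0076 with total counts alone and to 0.12 under the correction for length and GC, also when combined with the replicate block (0.12). IRF3 ran from -0.079 without control 1 to 0.23 without control 2, and was 0.25 with total counts alone. The number of factors called higher was 1 with a fold threshold of 1 and 1 with the replicate block, 1 to 2 when single libraries were left out, and 3 with total counts alone or with the length and GC correction. Genes called numbered 5416, 2561 with a fold threshold of 1, and 3106 to 5704 with a library left out, the lowest without control 2. Total-count scaling shifted the median log2 fold change by 0.18 and gave 3507 higher and 2200 lower, in place of 2520 and 2896.

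The replicate numbers gave no sign of pairing (same-number correlation -0.101). With 2 libraries a group the crossed correlation is fixed as its mirror, 0.101, and adds no further evidence. The replicate block called 5190 genes (2403 higher, 2787 lower), and IRF2 missed it with an FDR of 0.0792. The crossed pairing, added after the data were seen like the sum of STAT5A and STAT5B, called 5483 (2545 higher, 2938 lower). With 2 libraries a group, the 95% intervals of STAT3, STAT6, IRF1 and IRF9 held both 0.5 in size and values near 0, so changes of either size cannot be told apart.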
